A study of Rattus norvegicus with 12 samples.

Results

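The genes of the pyruvate dehydrogenase complex, its kinases and phosphatases, and the tricarboxylic acid cycle were followed in rat heart tissue. The list held 31 genes. Every probe set that the array annotation pairs with exactly 1 of their symbols was taken, which gave 42 probe sets for 29 genes, out of 14217 genes measured in all. Dlat and Fh had no such probe set. The series concerns the transition from compensated hypertrophy to heart failure in the spontaneously hypertensive rat, an inbred strain with inherited high blood pressure. The labels name only the state of the heart: 6 failing and 6 control hearts, each on its own array and called biological replicates. Nothing in the sources used here states the strain, sex, age, treatment or stage of the controls, so what the controls share with the failing animals is unknown. The captopril groups that the extraction protocol also names are not analysed here.

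Pyruvate dehydrogenase is the mitochondrial complex that turns pyruvate from glucose and lactate into acetyl-CoA. Its kinases (Pdk) phosphorylate the E1 alpha subunit and switch the complex off, and its phosphatases (Pdp) switch it on again. The cycle then oxidises acetyl-CoA from sugar and from fat and feeds electrons to the respiratory chain, which supplies most of the energy for contraction.

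Levels are given as the log2 of the deposited intensity, and a difference is failing minus control on that scale with the SE of the limma fit. Limma was fitted over all 14217 genes and also over the brighter 7109, those whose mean over the 12 arrays was at or above 8.21 (log2). A gene is said to have fallen or risen where its adjusted p among the brighter genes was under 0.05, because no gene of the series passed over all genes (0% called, lowest adjusted p = 0.0671). Of the 29 measured members 26 were among the brighter genes. Pdk3, Pdpr and Pc lay just under the limit, at means from 7.87 to 8.10, and Pdp2 was the dimmest above it, at 8.87.

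Most of these transcripts lay lower in failing hearts. The difference was below 0 in 26 of 29 measured members, with a median of -0.32, against 54.0% of all genes and a median of -0.033. Among the brighter genes 3 of 26 members fell, namely Idh3a, Idh3b and Pdp2, and none rose. The same rule called 4.73% of all brighter genes lower and 5.40% higher. The share of members called, 11.5%, rests on 3 genes. Over all genes 12 of 29 members were lower at an unadjusted p under 0.05, where the share of all genes was 9.95%, none was higher (9.12% of all genes), and 0 passed after adjustment.

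Control replicate 4 stood apart from the other control hearts. It was the lowest control heart in 26 of 29 members, while the lowest control heart was this one in 33.5% of all brighter genes. Among failing hearts replicate 3 was the lowest in 19 members and replicate 5 the highest in 16. Averaged over the 29 members after each gene was centred on its own mean, control replicate 4 lay at -0.33, below 5 of the 6 failing hearts, and the other control hearts lay between 0.12 and 0.34. Failing hearts lay between -0.43 and 0.094. Results are therefore given with and without control replicate 4. Leaving out the lowest control heart raises the control mean by construction.

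**Figure D1:**
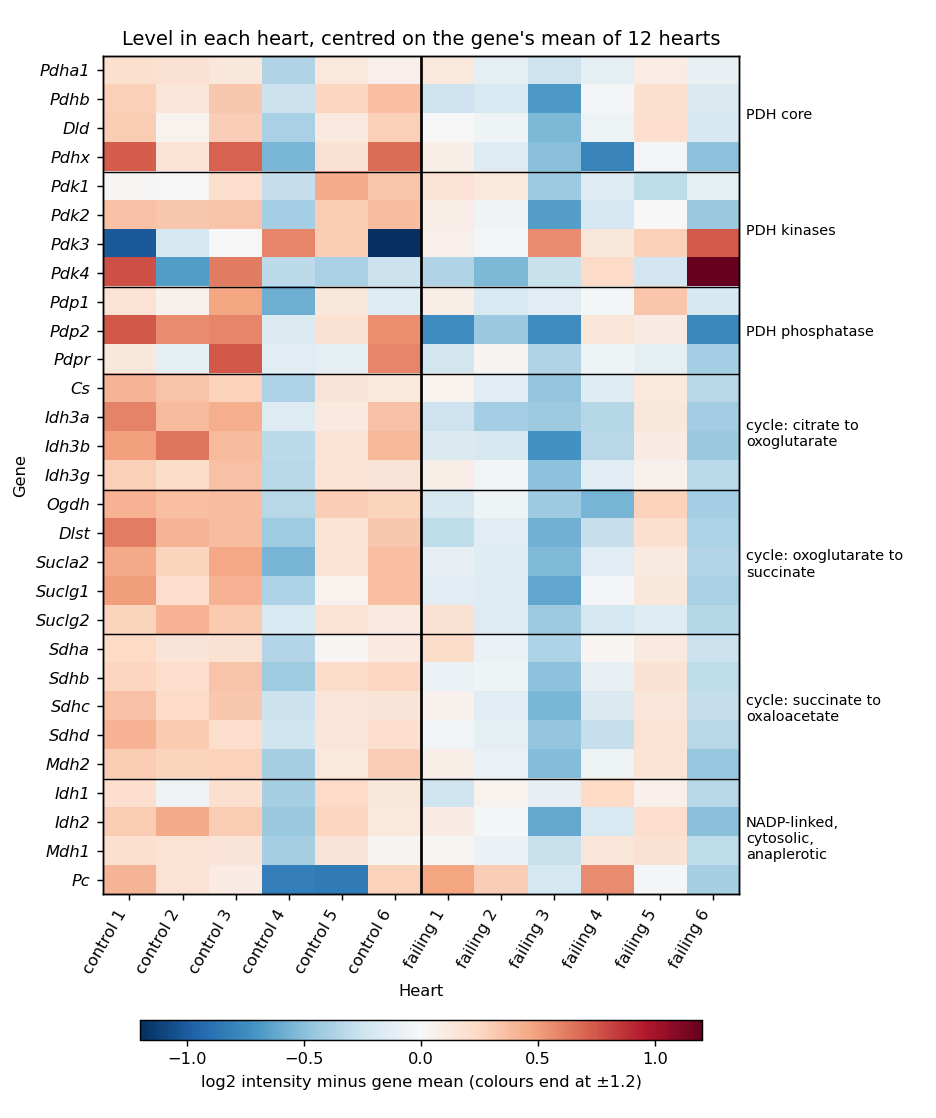
Log2 intensity of the 29 measured genes (rows, by class) in the 6 control and 6 failing hearts (columns), each gene centred on its mean over the 12 hearts. Colour gives the distance from that mean, red above and blue below. Control 4 and failing 3 are blue in most rows, and the kinases Pdk3 and Pdk4 do not follow the other rows.

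Without control replicate 4 the fit called 18 of 26 brighter members lower and 0 higher, against 13.5% and 10.2% of all brighter genes. The 18 included Idh3a, Idh3b and Pdp2. Over all genes 7 of 29 members were then lower (limma adjusted p from 0.0377 to 0.0492), against 2.69% of genes, and 0 higher, against 2.07%. They were Idh3a, Idh3b, Pdp2, Dlst, Pdhx, Pdk2 and Sucla2. In 9 of 26 members every failing heart lay below each of the remaining 5 control hearts, against 7.40% of brighter genes. With all 12 hearts this held for 0 of 26 members and 1.13% of brighter genes. The reverse, every failing heart above every control, held for 0 members with or without control replicate 4, against 2.11% and 4.36% of brighter genes. The median difference of the brighter members was -0.33 with all hearts and -0.42 without control replicate 4. The calls with all 12 hearts were not firm either. They numbered 0 when failing heart 3 or 6, or control heart 1, 2, 3 or 6, was left out, 1 when failing heart 4 was, and 2 when failing heart 2 or control heart 5 was. They numbered 7 without failing replicate 5. The share of all brighter genes called lower moved with these counts. It was 4.73% with all hearts and between 0.647% and 1.53% in the fits that called 0 members. Omitting failing heart 4 gave 1.24%, failing heart 2 gave 3.74%, control heart 5 gave 2.21% and failing heart 5 gave 8.50%. With all 12 hearts and a weight for each array the fit called the 18 members that were called without control replicate 4. It called 14.8% of all brighter genes lower. Control replicate 4 had the lowest weight, 0.289, so this fit is not independent of leaving that heart out.

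Markers of the cell types of the heart were read in the same hearts. Of 12 cardiomyocyte markers 11 were measured, all bright at means from 14.0 to 15.7, none at or near 0. None of the 11 was called with all hearts, and 3 were lower without control replicate 4. Their summed intensity ran from 316708 to 475764 in failing and from 302574 to 492578 in control hearts, control replicate 4 being the lowest of all 12. The mean of the 29 members minus the mean of the 11 markers, taken within each heart, lay between -0.13 and 0.053 in failing and between -0.11 and 0.15 in control hearts, and the groups overlapped. Control replicate 4, at 0.11, lay within the range of the other controls on this difference. The members averaged 0.28 lower in failing hearts and the markers 0.20 lower. Alpha-myosin heavy chain, Myh6, held much of the latter. Without it the markers were 0.12 lower and the difference between members and markers was -0.16, failing minus control. The groups still overlapped without Myh6, at -0.13 to 0.059 in failing and -0.071 to 0.20 in control hearts.

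Fibroblast markers were all measured, 10 of 10, with 2 called higher, and summed to between 59587.1 and 128457 in failing and between 49844.1 and 81757.8 in control hearts. Macrophage markers, 10 of 10, had 4 called higher and summed to between 18009.8 and 39603.6 in failing and between 12149 and 19051.1 in control hearts. Smooth muscle markers had 2 of 7 and endothelial markers 1 of 7 called higher. The endothelial list was split, with 3 markers lower and 4 higher in failing hearts, and none of them was called lower. Calls were possible only among the brighter genes, which held 9 fibroblast, 7 macrophage, 6 smooth muscle and 7 endothelial markers. Lymphocyte markers were dim, with 0 of 8 among the brighter genes, and none was called. Their sum was 5010.7 in control replicate 4 and at most 821.9 in failing hearts, and a single gene held most of it, the cytotoxic cell marker Nkg7, at 12.16 there. Of 3 erythroid markers measured none was called, but Alas2, the haem synthesis enzyme of red cell precursors, was at 12.85 in control replicate 4 against 8.81 to 10.19 in the other controls. The erythroid mean of centred values was 1.99 in that heart, at most 0.21 in the other controls and at most 0.81 in failing hearts. Adipocyte markers had none called. The 3' minus 5' difference of the Gapdh and beta-actin control probe sets is larger where RNA is more degraded. It was lowest in control replicate 4, at 0.36, and ran from 0.44 to 0.78 in the other hearts. The part of any of these in the results was not tested. In whole tissue fewer cardiomyocytes and less of these RNAs per cardiomyocyte cannot be told apart.

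**Figure D2:**
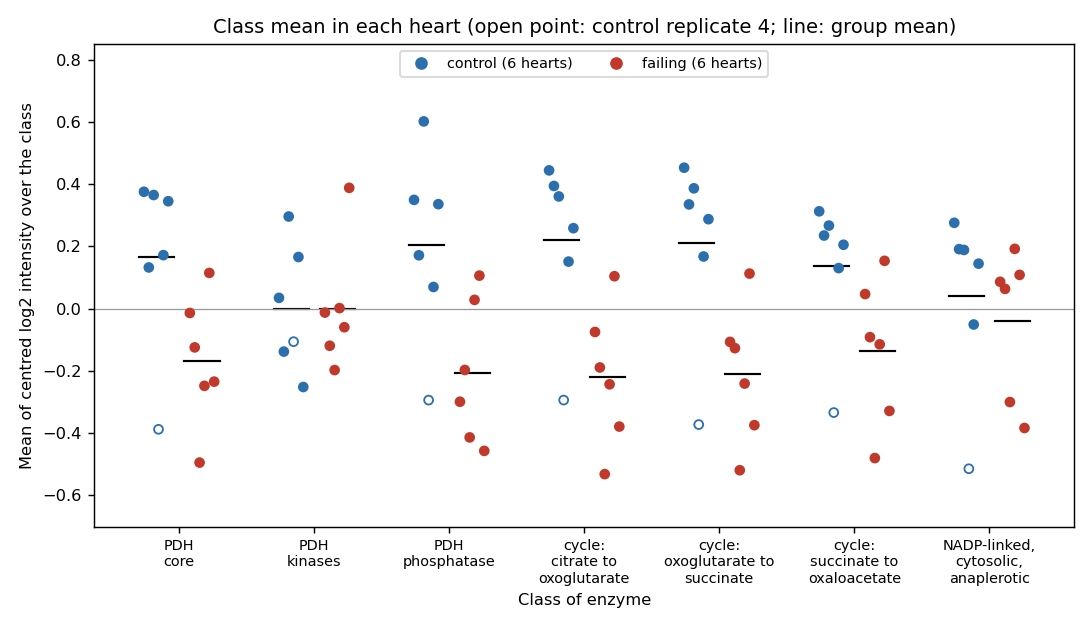
Mean of the centred log2 intensity over the measured genes of each class (vertical axis) in each heart, control hearts in blue and failing hearts in red, with a line at each group mean. Control replicate 4 (open points) lies within or below the range of the failing hearts in every class, and the group means of the kinases coincide.

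None of the 4 measured core subunits of pyruvate dehydrogenase passed with all hearts. Pdhx, Pdhb and Dld lay lower in failing hearts, and the probe sets of Pdha1 pointed both ways. Pdhx, the protein that binds the E3 subunit into the complex, had the largest difference. It was at 12.17, 11.94, 11.59, 11.29, 12.08 and 11.61 in failing replicates 1 to 6 and at 12.82, 12.26, 12.81, 11.55, 12.28 and 12.77 in control replicates 1 to 6. Only control replicate 4 lay inside the range of the failing hearts. The difference was -0.63 ± 0.24 (limma adjusted p = 0.074 among the brighter genes and 0.187 over all genes), or 0.645-fold, and -0.81 ± 0.19 without control replicate 4 (limma adjusted p = 0.00903 and 0.0447). Pdhb, the E1 beta subunit, differed by -0.37 ± 0.16. It did not pass with all hearts (limma adjusted p = 0.107 among the brighter genes) and passed without control replicate 4 (0.0263) or failing replicate 5 (0.0466). Dld, the E3 dehydrogenase shared with the oxoglutarate complex, differed by -0.22 ± 0.15 and passed in neither fit. Pdha1, the E1 alpha subunit that the kinases phosphorylate, differed by -0.11 ± 0.12, with a 95% interval from -0.37 to 0.14. A dimmer Pdha1 probe set pointed the other way, at 0.32 ± 0.16 (limma adjusted p = 0.196 among the brighter probe sets), and the mean of both was 0.10 higher in failing hearts. No direction is given for Pdha1.

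The 4 kinases did not move together. Pdk2, a kinase expressed in most tissues, was at 12.71, 12.58, 11.97, 12.42, 12.63 and 12.18 in failing replicates 1 to 6 and at 12.99, 12.95, 12.97, 12.22, 12.93 and 12.997 in the controls in the same order. The 5 controls other than replicate 4 lay close together (SD 0.027) and above every failing heart. The difference was -0.43 ± 0.17 (limma adjusted p = 0.0917 among the brighter genes), and -0.55 ± 0.14 without control replicate 4 (limma adjusted p = 0.0108). A second Pdk2 probe set gave a smaller difference, -0.22 ± 0.16, and -0.29 without control replicate 4. It passed in neither fit (limma adjusted p = 0.372 and 0.204 among the brighter probe sets). Pdk1, a target of the hypoxia response, differed by -0.24 ± 0.15, and its second probe set by 0.014 ± 0.12. Neither passed in any of these fits.

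Pdk4, the kinase that fasting and fatty acids raise in heart and muscle, did not differ beyond the spread between hearts. Failing hearts ran from 12.05 to 13.97 and control hearts from 11.92 to 13.36. The 3 highest hearts were failing replicate 6 at 13.97 and control replicates 1 and 3 at 13.36 and 13.21. The difference was 0.074 with a 95% interval from -0.70 to 0.85 (limma adjusted p = 0.903 among the brighter genes), wide enough to hold a change of either sign. The dimmer Pdk4 probe set gave 0.71 ± 0.46 (limma adjusted p = 0.307 among the brighter probe sets). Pdk3, the dimmest kinase here, was higher in failing hearts by 0.59 ± 0.32 and its second probe set by 0.60 ± 0.31, neither of which passed (limma adjusted p = 0.347 over all genes for the former). Control replicates 1 and 6 were its lowest hearts, at 6.86 and 6.42, where failing hearts began at 7.85.

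Of the phosphatases that reactivate the complex, Pdp2 fell. It is a catalytic subunit that is prominent in liver and fat and changes with nutritional state. Its level was 8.11, 8.42, 8.11, 9.01, 8.97 and 8.10 in failing replicates 1 to 6 and 9.61, 9.43, 9.46, 8.70, 9.05 and 9.43 in control replicates 1 to 6. Of the 6 failing hearts 4 lay below every control, while failing replicates 4 and 5 exceeded control replicate 4. The difference was -0.83 ± 0.22, or 0.564-fold (limma adjusted p = 0.0259 among the brighter genes and 0.0974 over all genes; exact permutation p = 0.00866, adjusted over the brighter genes 0.0834, n = 6 per group). A second Pdp2 probe set fell too, by 0.91 ± 0.23 (limma adjusted p = 0.0358 among the brighter probe sets, where 1.48% of probe sets were called lower and 2.76% higher). The call held in 6 of 12 fits that each left out 1 heart, with limma adjusted p from 0.0077 to 0.0639.

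The other phosphatase genes differed less. Pdp1, the calcium-stimulated catalytic subunit typical of heart and skeletal muscle, differed by -0.033 ± 0.17, with a 95% interval from -0.40 to 0.34. Its sign turned when failing heart 2 or 6, or control heart 3, was left out. Pdpr, the regulatory subunit, differed by -0.37 ± 0.17 and did not pass (limma adjusted p = 0.268 over all genes).

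**Figure D3:**
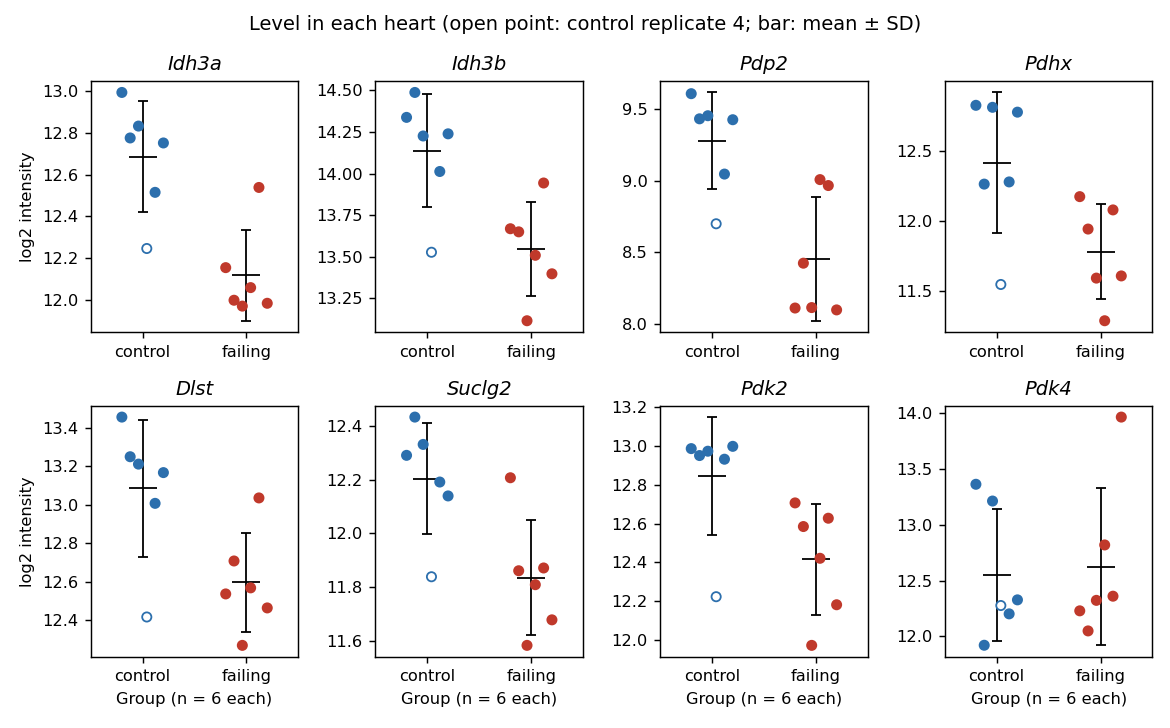
Log2 intensity of 8 genes in each of the 6 control (blue) and 6 failing (red) hearts, with mean and SD as bars and each vertical axis spanning its own range. Control replicate 4 (open) lies below the other 5 controls for every gene shown except Pdk4, and failing hearts lie lower on average in all but Pdk4.

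The first part of the cycle held the other genes that fell. Idh3a, the catalytic subunit of the NAD-dependent isocitrate dehydrogenase, was at 12.15, 11.997, 11.97, 12.06, 12.54 and 11.98 in failing replicates 1 to 6. In control replicates 1 to 6 it was at 12.99, 12.78, 12.83, 12.25, 12.51 and 12.75. All failing hearts but replicate 5 lay below every control. The difference was -0.57 ± 0.15, or 0.674-fold (limma adjusted p = 0.0253 among the brighter genes and 0.0934 over all genes; exact permutation p = 0.00649, adjusted 0.0769, n = 6 per group). The Idh3a call held in 5 of 12 fits that each left out 1 heart, with limma adjusted p from 0.0064 to 0.0617.

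Idh3b, a further subunit of the same enzyme, fell by 0.59 ± 0.18, or 0.664-fold (limma adjusted p = 0.0383 among the brighter genes and 0.119 over all genes; exact permutation p = 0.013, adjusted 0.0965, n = 6 per group). Its level was 13.67, 13.65, 13.12, 13.51, 13.94 and 13.40 in failing replicates 1 to 6 and 14.34, 14.49, 14.23, 13.53, 14.01 and 14.24 in control replicates 1 to 6. Every failing heart lay below the 5 controls other than replicate 4. The Idh3b call held in only 2 of the 12 fits that each left out 1 heart, those without failing replicate 5 and without control replicate 4 (limma adjusted p from 0.00695 to 0.0899 over the 12).

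Idh3g, the remaining subunit, and citrate synthase, Cs, which opens the cycle, differed by -0.28 ± 0.14 and -0.31 ± 0.15. Neither passed with all hearts (limma adjusted p = 0.173 and 0.155), and both passed without control replicate 4 (0.0303 and 0.0228). The 3 further Cs probe sets also lay lower, by -0.34, -0.13 and -0.26, without passing.

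From oxoglutarate to succinate all 5 measured genes lay lower, within a narrow band from -0.37 to -0.49. Ogdh and Dlst, the E1 and E2 subunits of oxoglutarate dehydrogenase, differed by -0.46 ± 0.17 and -0.49 ± 0.18. The succinyl-CoA ligase genes Suclg1, Sucla2 and Suclg2, of the alpha, ADP-forming beta and GDP-forming beta subunits, differed by -0.39 ± 0.17, -0.38 ± 0.18 and -0.37 ± 0.13. None passed with all hearts (limma adjusted p between 0.0682 and 0.137), and all 5 were called without control replicate 4 (0.00859 to 0.0206). Suclg2 had the smallest p of the 5. It was at 12.21, 11.86, 11.58, 11.81, 11.87 and 11.68 in failing replicates 1 to 6 and at 12.29, 12.43, 12.33, 11.84, 12.19 and 12.14 in the controls. Failing replicates 1, 2 and 5 lay above control replicate 4, and only replicate 1 of them reached the other controls.

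From succinate to oxaloacetate the differences were smaller, from -0.35 to -0.12. Sdhd, a membrane anchor of succinate dehydrogenase, which is also complex II of the respiratory chain, led them at -0.35 ± 0.14 (limma adjusted p = 0.0917 among the brighter genes). Its level was 14.10, 14.03, 13.67, 13.86, 14.31 and 13.80 in failing replicates 1 to 6 and 14.55, 14.45, 14.35, 13.90, 14.28 and 14.34 in control replicates 1 to 6. Failing replicate 5 reached the range of the controls, and control replicate 4 that of the failing hearts. The other anchor Sdhc, the iron-sulfur subunit Sdhb and the mitochondrial malate dehydrogenase Mdh2 differed by -0.32 ± 0.14, -0.28 ± 0.15 and -0.29 ± 0.16. None of the 3 passed with all hearts, and with Sdhd they passed without control replicate 4 (limma adjusted p from 0.0195 to 0.0386). Sdhd also passed without failing replicate 5 (limma adjusted p = 0.0388). A dimmer Sdhd probe set gave a smaller difference, -0.25 ± 0.15, and -0.32 without control replicate 4. It passed in neither fit (limma adjusted p = 0.264 and 0.105 among the brighter probe sets). By that probe set Sdhd would not lead, since Sdhc, Mdh2 and Sdhb lay lower. Sdha, the flavoprotein that oxidises succinate, differed by -0.12 ± 0.14 and passed in neither fit.

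The 4 enzymes beside the cycle had a median difference of -0.11, and none passed with all hearts. Idh2, the mitochondrial NADP-dependent isocitrate dehydrogenase, was at 15.22, 15.11, 14.51, 14.94, 15.34 and 14.62 in failing replicates 1 to 6 and at 15.43, 15.58, 15.43, 14.68, 15.38 and 15.25 in the controls. The groups overlapped, and the difference of -0.34 ± 0.19 did not pass with all hearts (limma adjusted p = 0.205 among the brighter genes) and passed without control replicate 4 (0.0394). The cytosolic enzymes Idh1 and Mdh1, the latter a part of the malate-aspartate shuttle, differed by -0.11 ± 0.14 and -0.10 ± 0.13. A dimmer Mdh1 probe set gave -0.26 ± 0.15 (limma adjusted p = 0.254 among the brighter probe sets). Pyruvate carboxylase, Pc, which makes oxaloacetate from pyruvate and lay just under the brightness limit, differed by 0.24 ± 0.27. None of Idh1, Mdh1 and Pc passed with or without control replicate 4.

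**Figure D4:**
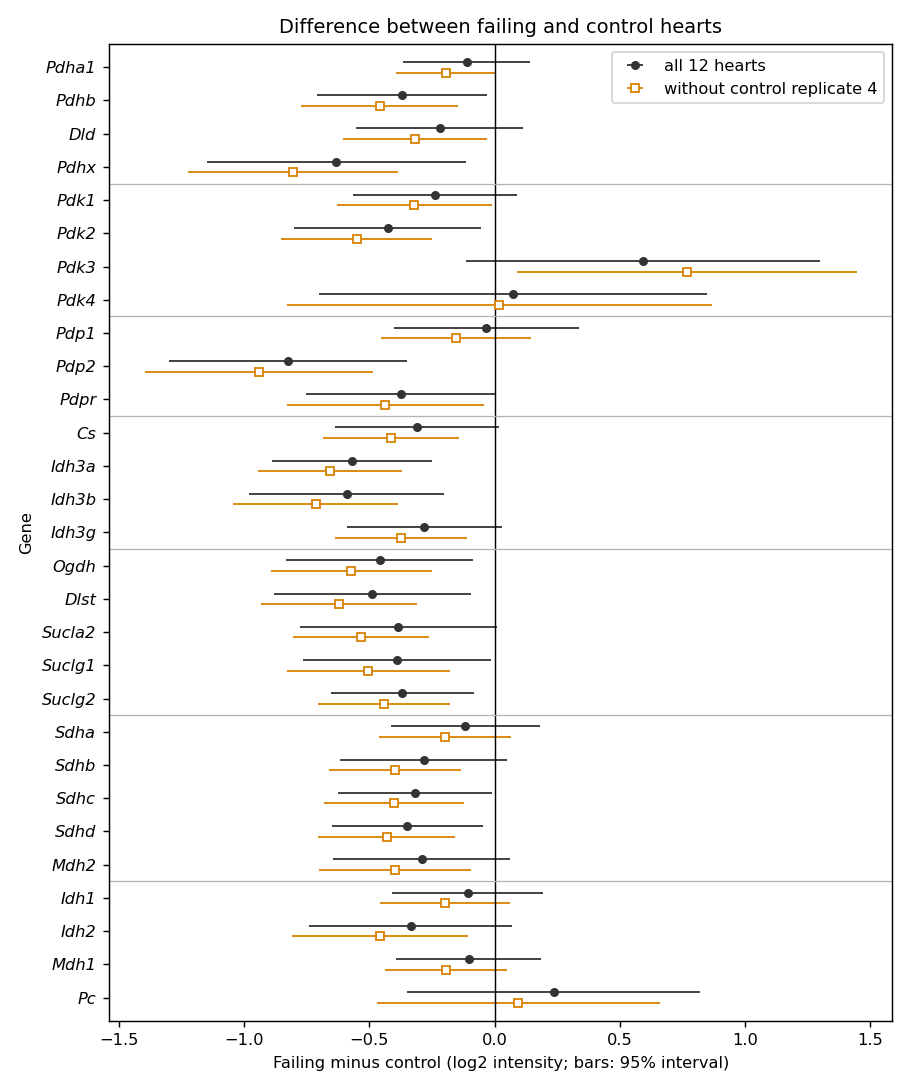
Failing minus control difference (log2 intensity, horizontal axis) with its 95% interval for each of the 29 genes, over all 12 hearts (filled) and without control replicate 4 (open). The open points lie further below 0 than the filled ones for the 26 genes whose difference is negative, and Pdk3, Pdk4 and Pc lie above 0 in both.

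Whether related genes changed unequally was asked within each heart, where anything that scales a whole array cancels. The log2 difference of 13 pairs of paralogues or subunits was compared between groups by an exact two-sided permutation test over hearts, and none passed after adjustment over the 13 (lowest adjusted exact p = 0.0563). Pdp2 relative to Pdp1 was lower in failing hearts by 0.79 ± 0.18 (exact p = 0.00649, adjusted p = 0.0563). Control replicate 4, at -2.48, lay within the other controls on this difference (-2.86 to -2.20), and the change without it was -0.79 (exact p = 0.00866). Idh3b and Idh3a were lower relative to Idh3g, by 0.31 ± 0.082 and 0.29 ± 0.093 (exact p = 0.00866 and 0.0152, adjusted p = 0.0563 for both). Idh3a relative to Idh3b differed by 0.021 ± 0.092 (exact p = 0.82), less than the spread between hearts. Mdh2 relative to the cytosolic Mdh1 was lower by 0.19 ± 0.066 (exact p = 0.0173, adjusted p = 0.0563). That pair depends on the probe set, since a dimmer Mdh1 probe set differed by -0.26, close to Mdh2 at -0.29. Idh2 relative to Idh1 was lower by 0.23 ± 0.16 (exact p = 0.173, adjusted p = 0.281). Pdk2 relative to Pdk3 was lower by 1.02 ± 0.47 (exact p = 0.0606, adjusted p = 0.136), and Sucla2 relative to Suclg2 by 0.016 ± 0.12 (exact p = 0.885). These pairs were chosen with the single-gene values known.

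**Figure D5:**
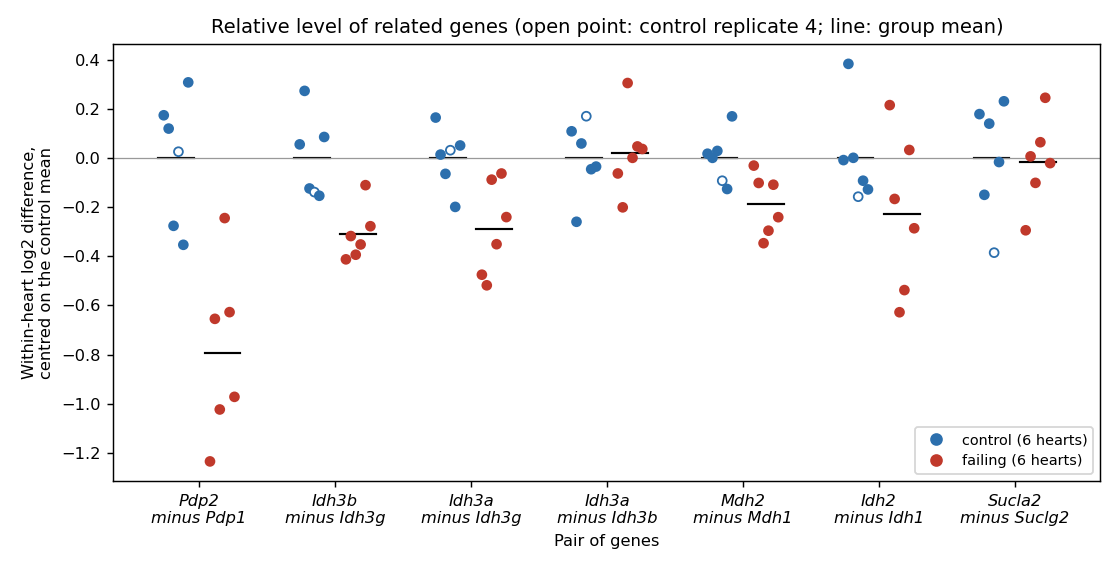
Within-heart log2 difference of the first gene minus the second for the 7 pairs outside the kinases, centred on the control mean, in 6 control (blue) and 6 failing (red) hearts with a line at each group mean. Failing hearts lie lower on average for Pdp2 minus Pdp1, Idh3b minus Idh3g, Idh3a minus Idh3g, Mdh2 minus Mdh1 and Idh2 minus Idh1. The group means lie close together for Idh3a minus Idh3b and Sucla2 minus Suclg2, and the groups overlap in every pair.

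The different probe sets of a gene were compared in the same way. For 13 further probe sets no difference from the one used for the gene passed after adjustment (lowest adjusted exact p = 0.26). The smallest p was that of Pdk2, whose second probe set differed by -0.22 and the first by -0.43. The gap between them was 0.21 (exact p = 0.039). For Pdha1 the second probe set differed by 0.32 and the first by -0.11, a gap of 0.43 (exact p = 0.0519). The widest gap was that of Pdk4, at 0.64 (exact p = 0.0779). Without control replicate 4 the exact p of the gap was 0.00649 for Pdk2, 0.013 for Pdk4, 0.0152 for Pdha1 and 0.0325 for Pdk1. It was at least 0.0974 for the others, and these values were not adjusted over the 13.

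Other genes around the pathway were taken from lists of 54 genes, 48 of which were measured and 39 were among the brighter genes. With all hearts 5 fell and 1 rose, and without control replicate 4 there were 16 lower and 2 higher. The same rules called 4.73% of all brighter genes lower and 5.40% higher with all hearts, and 13.5% and 10.2% without control replicate 4. Lipoate, the cofactor bound to the E2 subunits, depends on iron-sulfur cluster delivery, and Bola3, a factor in that delivery, fell by 0.73 ± 0.21 (limma adjusted p = 0.0329 among the brighter genes), the only 1 of 4 brighter genes of lipoate supply. Sdhaf1 and Sdhaf3, assembly factors that help insert the iron-sulfur subunit of succinate dehydrogenase, fell by 0.48 ± 0.13 and 0.61 ± 0.17 (limma adjusted p = 0.0311 and 0.0325), 2 of 4 in their list. Among 9 brighter genes that feed or drain the cycle Mmut, methylmalonyl-CoA mutase, which makes succinyl-CoA, fell by 0.62 ± 0.15 (limma adjusted p = 0.0234).

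None of the pyruvate and lactate genes or of the shuttle and carrier genes passed. Mpc2, a subunit of the mitochondrial pyruvate carrier, was nearest at -0.63 ± 0.23 (limma adjusted p = 0.0674). Slc25a11, the oxoglutarate carrier of the malate-aspartate shuttle, was at -0.42 ± 0.15 (limma adjusted p = 0.0731). Of the relatives of aconitase and oxoglutarate dehydrogenase, Dhtkd1 had the smallest p at 0.36 ± 0.18 (limma adjusted p = 0.3 over all genes). Of 13 transcription factors and coactivators known to act on these genes Ppargc1b, a coactivator of mitochondrial genes, fell by 0.76 ± 0.13 (limma adjusted p = 0.00988). All 6 failing hearts lay below every control for Ppargc1b, as in 1.13% of brighter genes. For Hif1a all 6 lay above every control, as in 2.11% of brighter genes. Its difference of 0.26 ± 0.091 did not pass (limma adjusted p = 0.0724). Foxo3, a forkhead factor that responds to insulin and stress signals, rose by 0.50 ± 0.14 (limma adjusted p = 0.0294).

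Promoter sequence was available for 27 of the 31 genes in the RefSeq table of assembly GRCr8, from 250 bases before to 50 after the annotated start. Of the 3 genes that fell only Idh3b was among them. The window was searched on both strands for TNAAGGTCA, an extended half-site bound by estrogen-related receptors, the perfect direct repeat bound by PPAR with its partner RXR, the palindrome of NRF-1, CCGGAAGT of GABP and the E-box CACGTG. They were found in 1, 0, 0, 2 and 3 of the 27 promoters. The shares of all 33469 promoters in the table were 1.2%, 0.0538%, 0.852%, 3.81% and 6.42%. The 250 bases before the start follow for Idh3b, the gene that fell, and for Dlst, Pdhb and Ogdh, which were called lower without control replicate 4 and hold a match, shown in capitals. They lie at chr3:137939991-137940240, minus strand for Idh3b, chr6:110489456-110489705, plus strand for Dlst, chr15:19182539-19182788, plus strand for Pdhb and chr14:85363781-85364030, plus strand for Ogdh, and are printed 5′ to 3′ in the direction of transcription.
Idh3b: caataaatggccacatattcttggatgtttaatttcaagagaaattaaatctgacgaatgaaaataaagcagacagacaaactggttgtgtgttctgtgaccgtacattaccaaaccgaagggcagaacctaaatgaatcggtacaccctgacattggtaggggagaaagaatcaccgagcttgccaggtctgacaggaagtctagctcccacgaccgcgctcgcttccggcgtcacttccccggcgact
Dlst: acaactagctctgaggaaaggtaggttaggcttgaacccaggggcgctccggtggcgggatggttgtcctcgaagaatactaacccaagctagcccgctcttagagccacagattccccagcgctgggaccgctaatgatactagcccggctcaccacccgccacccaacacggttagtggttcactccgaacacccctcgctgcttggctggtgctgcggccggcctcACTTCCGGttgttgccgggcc
Pdhb: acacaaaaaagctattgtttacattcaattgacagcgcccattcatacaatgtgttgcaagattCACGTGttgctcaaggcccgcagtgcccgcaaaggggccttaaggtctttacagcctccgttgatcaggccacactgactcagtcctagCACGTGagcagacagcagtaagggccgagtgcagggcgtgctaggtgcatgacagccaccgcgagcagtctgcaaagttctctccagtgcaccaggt
Ogdh: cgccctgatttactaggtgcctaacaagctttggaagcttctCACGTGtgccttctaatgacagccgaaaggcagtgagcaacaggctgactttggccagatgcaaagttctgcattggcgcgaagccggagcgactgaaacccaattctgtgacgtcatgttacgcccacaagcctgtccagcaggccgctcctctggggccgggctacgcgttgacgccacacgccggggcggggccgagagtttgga
The capitals in Dlst are a GABP match on the opposite strand that begins 21 bases before the start. Those in Pdhb are a pair of E-boxes that begin 186 and 97 bases before it, and in Ogdh an E-box that begins 208 bases before it. Idh3b holds no exact match to any of these motifs in the window, and sites that differ from them by a letter were not searched for. The remaining matches were GABP in Mdh2, an E-box in Pdk2 and the estrogen-related receptor half-site in Sdhd, which began 36 bases after the start. A match is a description of the sequence and does not show that a factor binds there.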

How the data were processed

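Per the labels' protocols, Trizol and then RNeasy columns gave heart RNA, and biotin-labelled cRNA was hybridised to an Affymetrix array. The tissue is labelled heart, although another label says cell line. The authors deposited 1 table of linear intensity values. The submitters' processing notes name RMA, whose output is usually log2, so the summary method is unknown. The arrays share a trimmed mean near 500.2, which would hide a shift common to most genes. Depth does not apply, and the 12 arrays limit the precision.

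Intensities were taken to log2 with no offset. Each gene was represented by its brightest probe set with 1 symbol, by the mean of the 12 arrays, and 57 control probe sets were left out. Groups and replicate numbers came from the titles. The groups were compared by limma 3.58.1 under R 4.3.3 (two-sided, Benjamini-Hochberg, threshold 0.05). Related genes were compared by exact permutation over 924 arrangements (smallest p 0.00216). The fits were tested on simulated data. Whether replicates share a litter or batch is not stated. Same-numbered hearts did not pair (correlations of deviations from -0.12 to 0.26). The members, lists, tests and the brightness limit were chosen with earlier results of these data known. Named were all members, called genes of each surrounding list, or the one with the smallest p, and Hif1a, whose groups did not overlap. Alternatives are listed at the end. Figures used matplotlib 3.10.9.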

Additional observations from a re-analysis of the deposited data

Results flagged for a closer look

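In each group of 6 hearts the gap between the outermost heart and its neighbour was divided by the range of the group, for 29 genes and both groups. In 14 of the 58 cases the quotient exceeded the 95% limit of Dixon's test, which chance alone passes in about 1 group of 20. In 13 of the 14 the outlying heart was control replicate 4, lowest of the controls, for Pdha1 (0.765), Pdhb (0.652), Pdk2 (0.914), Cs (0.648), Idh3g (0.713), Ogdh (0.796), Sucla2 (0.709), Sdha (0.629), Sdhb (0.839), Sdhc (0.661), Mdh2 (0.746), Idh2 (0.63) and Mdh1 (0.739), the quotient in parentheses. These genes vary together, so the 13 are not separate observations. The other case was Idh3a in failing hearts, where replicate 5 was the highest at 12.54 with its neighbour at 12.15 (quotient 0.676). Neither heart was left out of the values with all 12 hearts.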

How the results depend on the processing

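The count of members that fell among the brighter genes, 3 with all hearts, was 0 with the replicate block, by the exact permutation test and with a filter at the lower quartile, and 18 with array weights. Its range was 0 to 18 over the 12 fits that each left out 1 heart. No member was called higher in any setting. Over all genes the count of members called, 0 at first, was 3 with array weights (657 genes called), 2 with a variance trend (524 called), and 0 to 7 with 1 heart left out. The count of all brighter genes called, 720, was 411 with the replicate block, 1914 with array weights, 0 by the exact permutation test and 266 with the filter at the lower quartile. It ran from 179 without control replicate 1 to 1688 without control replicate 4. By exact permutation 2813 of all genes had an unadjusted p under 0.05. Median centring moved the share of higher genes among the calls from 53.3% to 62.6% and left Idh3a and Pdp2 called. The median of all genes fitted lay between -0.037 and -0.00022 in every setting.

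Pdha1 turned to 0.10 with the mean of all probe sets. Pdk4 turned to -0.072 with array weights and ran from -0.19 to 0.24 with 1 heart left out, below 0 without failing heart 6 (-0.19) or control heart 2 (-0.052). Pdp1 ran from -0.15 to 0.058, above 0 when failing heart 2 or 6, or control heart 3, was left out. Array weights ran from 0.289 for control replicate 4 to 1.97 for failing replicate 4. The cause of these changes was not tested. All other differences of the 29 members kept their sign. The number of arrays limits the precision. Pdk3, Pdpr and Pc lay just under the brightness limit and were judged over all genes only.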
